A study of Drosophila melanogaster with 4 samples.

Results

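The loci described here are 4 windows on chromosome arm 2L of Drosophila melanogaster, chosen for 10 genes of animal patterning. They are the dpp locus, the Wnt cluster (Wnt4, wg, Wnt6 and Wnt10), the locus of the POU genes nub and pdm2, and the Snail family cluster (esg, wor and sna). The windows were set by position, with earlier results of these data known, and together span 462 kb (2L from 2428000 to 2460000, 7250000 to 7350000, 12590000 to 12690000 and 15260000 to 15490000, FlyBase r5). They held 50 of the 15405 H4-enriched regions of replicate 1, 38 of the 12952 of replicate 2, and 101 of the 22525 in the combined list of the replicate set. A region was counted where at least 1 of its bases lay in a window.

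The chromatin came from wild-type embryos of the strain Oregon-R-modENCODE at 14 to 16 h of development, crosslinked with 1.8% formaldehyde and precipitated with an antibody to histone H4. The study has 2 ChIP libraries and, as the control of each, an input library of unprecipitated genomic DNA with the same number. No second genotype, stage or treatment was sampled, so the comparisons are between replicates, between loci and with the rest of 2L. Whole embryos mix all cell types, and a difference in the share of cells that carry a state cannot be told apart from a difference in H4 occupancy per cell.

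Histone H4 is part of the core of every nucleosome, so precipitation with H4 antibody against input reports where nucleosomal DNA is recovered more than the genome at large. The 10 genes fall into signalling molecules and transcription factors. dpp encodes a secreted ligand of the BMP class that patterns the dorsal side of the embryo and later the imaginal discs. wg is the founding fly Wnt gene, a secreted segment polarity signal, and Wnt4, Wnt6 and Wnt10 encode related secreted ligands. nub and pdm2 encode neighbouring POU-domain transcription factors used in neural precursors and, for nub, in wing development. sna, esg and wor encode zinc-finger transcription factors of the Snail family: sna acts in the mesoderm, esg in the maintenance of undifferentiated and diploid cells, and wor in neural stem cells.

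All 10 symbols were found on 2L in the RefSeq gene table of the Release 6 assembly, in the order dpp, Wnt4, wg, Wnt6, Wnt10, nub, pdm2, esg, wor and sna. That table is of another build than the regions. It was therefore used for names and neighbours alone, and no region is assigned to a gene, exon or promoter. In its gene order Wnt6 and Wnt10 are direct neighbours, 1 protein-coding gene (CG31909) is listed between Wnt4 and wg, and 1 (Ref2) between nub and pdm2. CG15258 and CG44869 are the protein-coding genes listed between esg and wor, and CG4161 the one between wor and sna. In Release 6 the 4 Wnt genes span more than the width of the Wnt window, so part of the cluster, at its Wnt4 or its Wnt10 end, may lie outside the window.

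The 4 loci differed widely in how much of their length lay in H4-enriched regions. The dpp locus had the highest share, with 46.6% of its bases in replicate 1 and 41.6% in replicate 2. The Wnt cluster followed with 26.4% and 15.3%, then the nub and pdm2 locus with 20.2% and 17.3%. The Snail family cluster was lowest in both replicates, with 16.1% and 10.9%. The Wnt cluster and the nub and pdm2 locus changed places between the replicates, so their order is not larger than the replicate spread. The background was 28.4% of the bases of 2L in replicate 1 and 23.2% in replicate 2. Thus dpp lay above the arm in both lists, and the other 3 loci lay below it in both. With 1 condition and 2 ChIP libraries no test between groups of samples was possible, and the loci are compared with equal-size windows as a description.

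Equal-size windows were laid end to end along the rest of 2L. By the mean of both replicates, 44.1% ± 3.5 (SD, n = 2), dpp stood above 561 of 700 windows of its size, whose median was 21.7%. The Wnt cluster, at 20.8% ± 7.9 (SD, n = 2), stood above 98 of 222 windows, with a median of 24.0%. The nub and pdm2 locus, at 18.7% ± 2.0 (SD, n = 2), stood above 87 of the 222. The Snail family cluster, at 13.5% ± 3.7 (SD, n = 2), stood above 15 of 94 windows, with a median of 24.8%. The middle 50% of windows ran from 9.61% to 38.9% for dpp and from 15.5% to 35.2% for the Snail family cluster. Both loci lay outside it, and the Wnt cluster and the nub and pdm2 locus lay inside theirs. By construction about 50% of windows lie outside the middle 50%, the same share as among these loci. The windows were not matched for place on the arm, and covered shares varied along it. In replicate 1 the windows directly left and right of dpp had 42.3% and 34.5%. Those beside the Snail family cluster had 23.1% and 7.62%. How far place on the arm set these ranks was not tested.

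**Figure D1:**
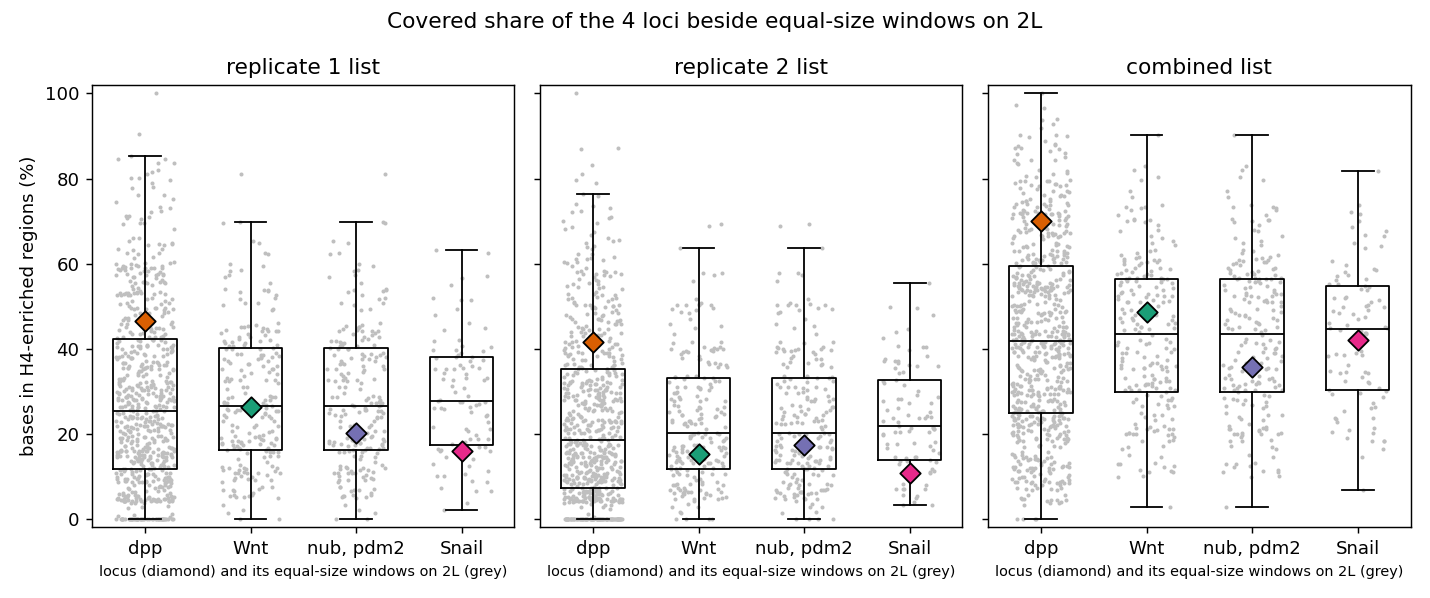
Percent of bases in H4-enriched regions (y axis) in each list, with 1 diamond per locus and grey points for the equal-size windows on 2L (boxes span the middle 50%, the line is the median, whiskers reach the last point within 1.5 box lengths). The dpp diamond lies above its box in all 3 lists, at 46.6%, 41.6% and 70.0%, and the Snail family diamond lies below its box in both replicate lists but inside it in the combined list, at 42.1%.

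The combined list gave another picture of the Snail family cluster. It marked 70.0% of the dpp locus, 48.7% of the Wnt cluster, 35.8% of the nub and pdm2 locus and 42.1% of the Snail family cluster, beside 42.9% of 2L. By this list the Snail family cluster was close to the arm and stood above 41 of its 94 windows. dpp remained high, above 602 of 700 windows, and the Wnt cluster moved to above 131 of 222. Stretches marked in both replicate lists made up 32.0% of the dpp locus, 11.5% of the Wnt cluster, 13.0% of the nub and pdm2 locus and 7.90% of the Snail family cluster, beside 20.1% of 2L.

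Regions of the 4 loci were somewhat narrower than those of the arm. Their median width was 1688 bp in replicate 1 and 1667 bp in replicate 2, beside 1987 and 1938 bp on 2L. The authors' score of a region, whose scale is not stated, was at or above the 2L median of its list in 21 of the 50 regions in replicate 1 and in 15 of the 38 in replicate 2. The top 10% of 2L scores took in 3 of the 50 and 1 of the 38. By construction, about 50% and 10% of all 2L regions meet these marks.

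**Figure D2:**
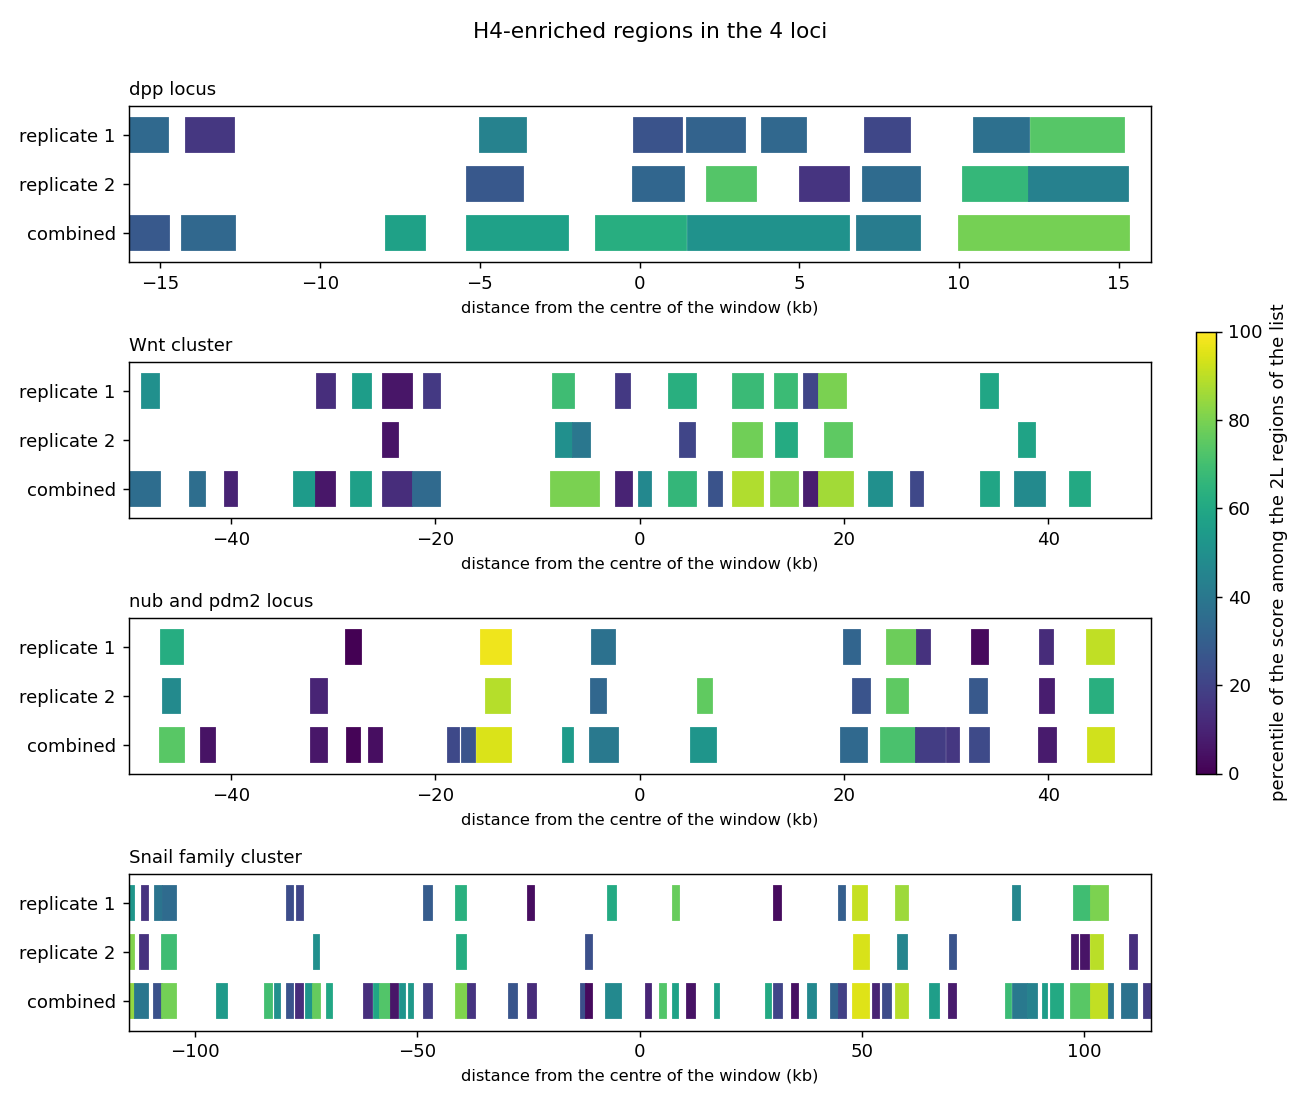
Position of every H4-enriched region in the 4 windows, as distance from the centre of the window in kb, with 1 row per list and a colour for the percentile of the region's score among the 2L regions of its list. The dpp window is filled with closely set regions right of its gap. They are mostly of low percentile in the replicate rows but not in the combined row. The nub and pdm2 window and the Snail family window hold a few bright regions in both replicates, with dimmer regions and empty stretches between. Of their replicate rows, only that of the Snail family window in replicate 2 has a longest gap above the median of its equal-size windows.

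At dpp, the ligand gene, H4 enrichment in the replicate lists was made of many short, low-scoring regions set close together. Replicate 1 had 9 regions, and 4 of the 700 equal-size windows had more; the median window had 4. Replicate 2 had 7, and 22 windows had more; the median was 3. Their median widths were 1495 bp and 1739 bp, and their median scores of 0.49 and 0.52 were at percentiles 33.3 and 34.4 of the 2L scores. In replicate 1, 1 of the 9 regions reached the 2L median score, and in replicate 2, 2 of the 7 did. In the combined list, by contrast, 5 of the 8 regions were at or above the 2L median in score and 5 in width, with a median width of 2375 bp beside 1850 bp on 2L and a median score at percentile 54.0. With only the higher scoring 50% of each replicate list, 10.1% of the dpp locus was covered and it stood at percentile 50.0 of its windows, in place of 80.1.

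The widest region at dpp lay at the right end of the window in both replicates, on 2L from 2456262 to 2459172 in replicate 1 (2911 bp, score 0.67) and from 2456210 to 2459286 in replicate 2 (3077 bp, score 0.55). It was the highest scoring region of the locus in replicate 1 and ranked 3 in replicate 2. A region next to it, from 2454489 to 2456184 in replicate 1 and from 2454145 to 2456185 in replicate 2, scored 0.50 and 0.62. The combined list joined these neighbours into 1 region of 5327 bp.

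The middle of the dpp window was marked by 5 regions in each replicate. In replicate 1 they spanned 2438998 to 2440456, 2443829 to 2445323, 2445489 to 2447311, 2447830 to 2449211 and 2451069 to 2452474. Their scores in that order were 0.53, 0.45, 0.48, 0.49 and 0.43. In replicate 2 the partners spanned 2438602 to 2440340, 2443797 to 2445391, 2446123 to 2447651, 2449023 to 2450559 and 2450998 to 2452791, with scores of 0.49, 0.51, 0.66, 0.43 and 0.52. Of these pairs, all except the one that begins at 2447830 in replicate 1 overlapped by at least 65.2% of the replicate 1 region. That pair shared 189 bp, with both boundaries more than 1 kb further right in replicate 2.

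The left end of the dpp window differed between the replicates. Replicate 1 had regions from 2427806 to 2429235 (score 0.49) and from 2429799 to 2431293 (score 0.39), and replicate 2 had none before 2438602. The longest gap was thus 7.70 kb in replicate 1, from 2431294 to 2438997, and 10.6 kb in replicate 2, from 2428000 to 2438601. The combined list took in both left regions and had its longest gap from 2431336 to 2436076 (4.74 kb). The stretch from 2432000 to 2435999 was free of regions in all 3 lists. The windows of the same width on the left and right of dpp were covered to 42.3% and 34.5% in replicate 1 and to 37.0% and 32.5% in replicate 2, so dpp was covered more than either neighbour in both replicates.

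The Wnt cluster had its reproducible H4 enrichment in the middle of the window. Over the whole window replicate 1 had 13 regions and replicate 2 had 8, with median scores of 0.57 and 0.58, close to the 2L medians of 0.55 and 0.57. The densest 10 kb, from 7310000 to 7319999, was covered to 80.3% in replicate 1 and to 58.8% in replicate 2. This peak held 3 pairs and, in replicate 1, a region without a partner from 7316107 to 7317503 (score 0.42). The first spanned 7309187 to 7312074 in replicate 1 (score 0.64) and 7309196 to 7311986 in replicate 2 (score 0.69). The second spanned 7313303 to 7315446 (score 0.64) and 7313390 to 7315434 (score 0.60). The third spanned 7317591 to 7320227 (score 0.72) and 7318152 to 7320820 (score 0.67), and in replicate 1 it was the highest scoring region of the cluster. In replicate 2 the first of them was the highest.

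A further 3 pairs lay to the left of this peak. On 2L from 7302856 to 7305503 replicate 1 had a region of score 0.61, and replicate 2 covered its right part from 7303952 to 7305453 with a score of 0.46. On 2L from 7291490 to 7293574 replicate 1 had a region of score 0.64, matched by replicate 2 from 7291855 to 7293418 (score 0.57). Replicate 2 had a further region beside it, from 7293482 to 7295153 (score 0.54), which the replicate 1 region covered to 5.56%. The remaining pair had the lowest score of the cluster in both replicates, 0.31 for 7274942 to 7277696 in replicate 1 and 0.36 for 7274907 to 7276324 in replicate 2.

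The outer parts of the Wnt window were marked in 1 replicate or in none. The left 24.9 kb, from 7250000 to 7274906, had no region in replicate 2, its longest gap, while replicate 1 had 3 there, with scores of 0.55, 0.38 and 0.57. The longest gap of replicate 1 was 15.4 kb, from 7253027 to 7268459, and that of the combined list 10.9 kb, from 7280470 to 7291382. On the right, replicate 1 had a region from 7333442 to 7335112 (score 0.59), and replicate 2 had a separate one from 7337117 to 7338733 (score 0.59), with no overlap between them. Neither replicate had a region in the last 10 kb of the window. With the right edge moved out by 50 kb, as the Wnt genes span more than the window, the mean share was 22.0%, close to the 20.8% of the window itself; this alternative was chosen after seeing the data.

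At the POU genes nub and pdm2, H4 enrichment took up a share within the middle 50% of equal-size windows and held the highest score of the 4 loci in replicate 1. Each replicate had 10 regions, close to the medians of 11 and 9 in windows of the same size, and 8 of them paired. The region from 12624534 to 12627405 in replicate 1 scored 1.01, at percentile 97.6 of 2L and 60th of its 2503 regions. Its partner from 12625002 to 12627287 in replicate 2 scored 0.77, at percentile 88.8. It was the highest scoring region of the locus in both replicates and, by percentile, of all 4 loci in replicate 1. The combined list extended it to 3384 bp, from 12624053 to 12627436, with a score of 0.72.

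A second strong region lay near the right end of the window, from 12683821 to 12686446 in replicate 1 (score 0.84, percentile 90.3) and from 12684128 to 12686294 in replicate 2 (score 0.61, percentile 63.2). Another lay from 12664196 to 12667093 in replicate 1 (score 0.70) and from 12664211 to 12666252 in replicate 2 (score 0.67), at percentiles 77.5 and 75.0. In replicate 2 the second highest score of the locus belonged to a short region without a partner, from 12645706 to 12647120 (1415 bp, score 0.67). The lowest score of the 4 loci in replicate 1 was also here: the region from 12611298 to 12612762 scored 0.12, at percentile 0.220, and replicate 2 had nothing there.

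The other pairs of the nub and pdm2 locus had moderate or low scores. The pair at the left, 12593189 to 12595355 and 12593387 to 12595004, scored 0.60 and 0.56. The pair 12635374 to 12637646 and 12635238 to 12636729 scored 0.50 and 0.51. The remaining 3 pairs lay right of 12659974 and scored from 0.25 to 0.49. The pair 12659975 to 12661595 and 12660868 to 12662517 shared 728 bp, with scores of 0.48 and 0.49. The pair 12672508 to 12674091 and 12672312 to 12673973 scored 0.25 and 0.49. The last pair had the closest boundaries of the locus, 12679167 to 12680497 in replicate 1 and 12679141 to 12680520 in replicate 2, which differed by 26 bp at the start and 23 bp at the end.

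The stretches without a region in the nub and pdm2 window were not long for windows of this size. The longest in replicate 1 ran from 12637647 to 12659974 (22.3 kb), beside a median of 22.4 kb for the longest gap of the windows, and in replicate 2 was interrupted by the short unpaired region. The longest in replicate 2 ran from 12609459 to 12625001 (15.5 kb), shorter than in 187 of 222 windows. In the combined list it ran from 12647446 to 12659763 (12.3 kb). The 10 kb from 12650000 to 12659999 were covered to 0.25% in replicate 1, to 0% in replicate 2 and to 2.36% in the combined list. The window to the left of this locus was covered far less than the locus, to 6.30% and 6.18% in replicates 1 and 2, and the window to its right more, to 31.8% and 27.5%. Among these 3 windows the covered share was lowest on the left and highest on the right in both replicates.

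**Figure D3:**
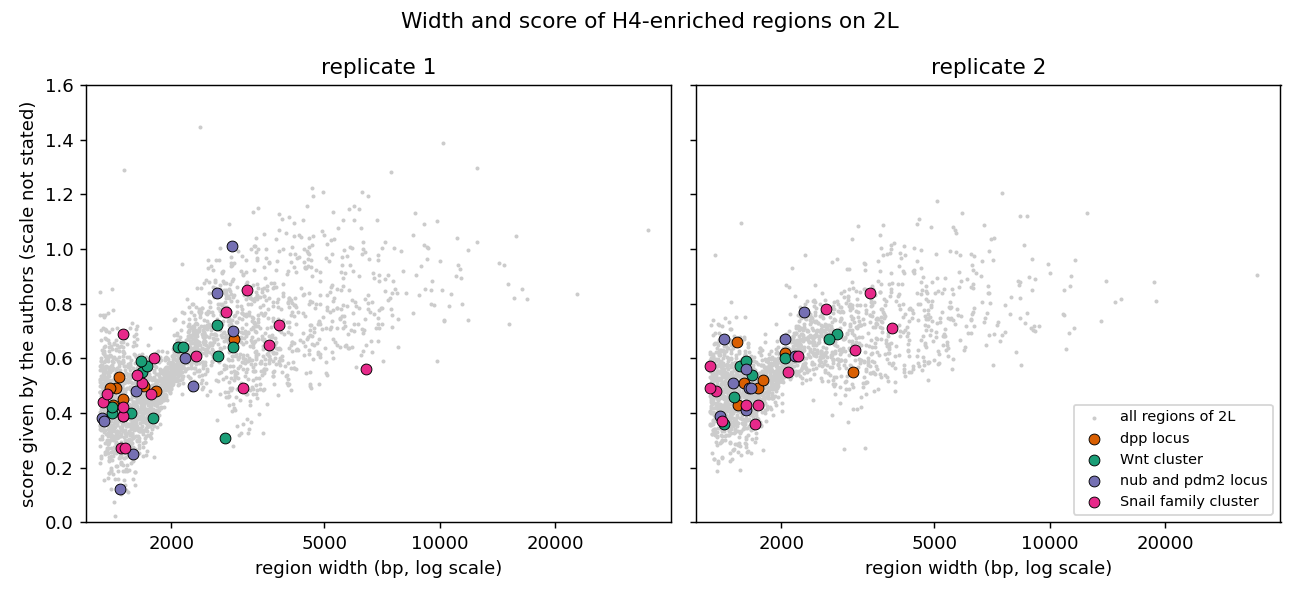
Width (x axis, bp, log scale) against the authors' score (y axis) of the regions in each replicate list, with all regions of 2L in grey and those of the 4 loci in colour; 4 grey regions with scores above the axis are not drawn. Most dpp regions gather at low widths and scores, and the nub and pdm2 region with a score of 1.01 in replicate 1 stands above the other coloured points.

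In the Snail family cluster, H4-enriched regions of the replicate lists were fewer than in the median window of the same 230 kb width. Replicate 1 had 18 regions and replicate 2 had 13, beside medians of 26 and 21 in windows of the same size, and 8 regions paired. The highest scoring region in both replicates lay from 15423128 to 15426270 in replicate 1 (3143 bp, score 0.85) and from 15423253 to 15426664 in replicate 2 (3412 bp, score 0.84). These were at percentiles 91.3 and 94.0 of 2L. In the combined list it ran from 15423122 to 15426609 with a score of 0.75, the highest of the 101 combined regions in the 4 loci.

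Near the right end of the Snail family window the replicates shared a second strong region, from 15476536 to 15480347 in replicate 1 (3812 bp, score 0.72) and from 15476653 to 15479271 in replicate 2 (2619 bp, score 0.78). Directly to its left, replicate 1 had a region from 15472789 to 15476374 (score 0.65). Replicate 2 had 2 weak regions in its place, from 15472269 to 15473668 (score 0.37) and from 15474378 to 15476084 (score 0.36). The 10 kb from 15470000 to 15479999 were covered to 70.5% and 57.3%, the highest of the 23 bins of 10 kb in this window in both replicates.

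Between the highest scoring region and these lay a pair from 15432749 to 15435519 in replicate 1 and from 15433162 to 15435236 in replicate 2, with scores of 0.77 and 0.55. In the left part of the window a pair lay from 15333710 to 15336027 in replicate 1 and from 15333826 to 15336031 in replicate 2. It scored 0.61 in each, at percentiles 63.6 and 61.9, and its boundaries differed by 116 bp at the start and 4 bp at the end. Between it and the highest scoring region, replicate 1 had 5 regions and replicate 2 had 1, and none of them paired.

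The left edge of the Snail family window was marked by 3 further pairs. The widest replicate region of the 4 loci was among them, from 15254742 to 15261178 in replicate 1 (6437 bp, score 0.56), which reached into the window from the left. In replicate 2 it began 2537 bp further right and spanned 15257279 to 15261167 (3889 bp, score 0.71). The next pairs were 15262947 to 15264440 with 15262670 to 15264403 (scores 0.39 and 0.43), and 15267687 to 15270768 with 15267557 to 15270670 (scores 0.49 and 0.63). The first 10 kb of the window were covered to 66.7% and 53.5%. The window to the left of the cluster was covered to 23.1% and 20.3% in replicates 1 and 2, and that to its right to 7.62% and 6.37%.

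The longest gap of the Snail family cluster differed strongly between the replicates. In replicate 2 it ran for 58.9 kb, from 15364367 to 15423252, a length that the longest gap of 20 of the 94 windows exceeded. Replicate 1 had 4 whole regions in that stretch, with scores of 0.60, 0.69, 0.27 and 0.47. In replicate 1 the longest gap was 27.2 kb, from 15299321 to 15326514, and 56 of the 94 windows had a longer one. In the combined list it was 11.4 kb, from 15446126 to 15457487, shorter than in 74 of the 94 windows.

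The replicates overlapped less in the Wnt and Snail clusters than in the other loci and than on 2L. The Jaccard index, shared bases over bases covered by either list, was 56.9% at dpp, 53.1% at nub and pdm2, 41.5% in the Snail family cluster and 37.9% in the Wnt cluster, beside 64.2% on 2L. Of the equal-size windows with regions, 199 of 220 had a higher index than the Wnt cluster and 89 of 94 a higher one than the Snail family cluster. For dpp 357 of 662 were higher, and for nub and pdm2 146 of 220. In the Wnt cluster replicate 1 covered 26.4 kb and replicate 2 covered 15.3 kb, and the part of the unequal lengths in its index was not tested. The order of the loci did not hold with the higher scoring 50% of each list. There the Wnt cluster had 42.5%, nub and pdm2 54.2% and the Snail family cluster 33.2%. The dpp locus had 0%, but only 1 region of replicate 1 and 2 of replicate 2 were left in it. Each of these had a partner in the full lists that fell below the cut, so the 0% says little about replicate overlap at dpp.

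Most regions of replicate 2 had a partner, as on 2L, with boundaries further apart than on the arm at 3 of the 4 loci. All 7 regions of replicate 2 at dpp had a partner in replicate 1, as did 6 of 8 in the Wnt cluster, 8 of 10 at nub and pdm2 and 8 of 13 in the Snail family cluster. On 2L as a whole, 1734 of the 2124 regions of replicate 2 had one. The median distance between matching boundaries was 122 bp in the Wnt cluster, 197 bp at nub and pdm2, 203 bp in the Snail family cluster and 216 bp at dpp, beside 126 bp on 2L. The largest was the 2537 bp at the left edge of the Snail family window. Regions of replicate 1 without a partner numbered 2 of 9 at dpp, 7 of 13 in the Wnt cluster, 2 of 10 at nub and pdm2 and 10 of 18 in the Snail family cluster. On 2L they numbered 769 of 2503.

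The combined list added most to the Snail family cluster. It held 53 regions there, more than 89 of 94 equal-size windows, and 31 of them (58.5%) touched neither replicate list, beside 35.2% of the combined regions of 2L. Those in both lists numbered 9 (17.0%), beside 41.7% on 2L. By bases, 55.5% of the combined regions in this cluster (53.7 kb) lay outside both replicate lists, a share that 3 of 94 windows exceeded and that was 27.5% on 2L as a whole. The longest region in neither list spanned 15467646 to 15470406 (2761 bp, score 0.41).

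Counted by regions in neither list, the Wnt cluster and the nub and pdm2 locus were closer to the arm, and dpp lay below it. Combined regions that touched neither replicate list numbered 1 of 8 at dpp (12.5%), 8 of 22 in the Wnt cluster (36.4%) and 6 of 18 at nub and pdm2 (33.3%). Those in both numbered 5 of 8 (62.5%), 6 of 22 (27.3%) and 8 of 18 (44.4%). The longest in neither list were 2436077 to 2437292 at dpp (1216 bp, score 0.40), 7322468 to 7324740 in the Wnt cluster (2273 bp, score 0.38) and 12597053 to 12598418 at nub and pdm2 (1366 bp, score 0.17). In the Wnt cluster 7 combined regions (31.8%) touched replicate 1 alone and 1 (4.55%) touched replicate 2 alone. On 2L these shares were 16.9% and 6.21%, so replicate 1 alone was the larger there too.

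**Figure D4:**
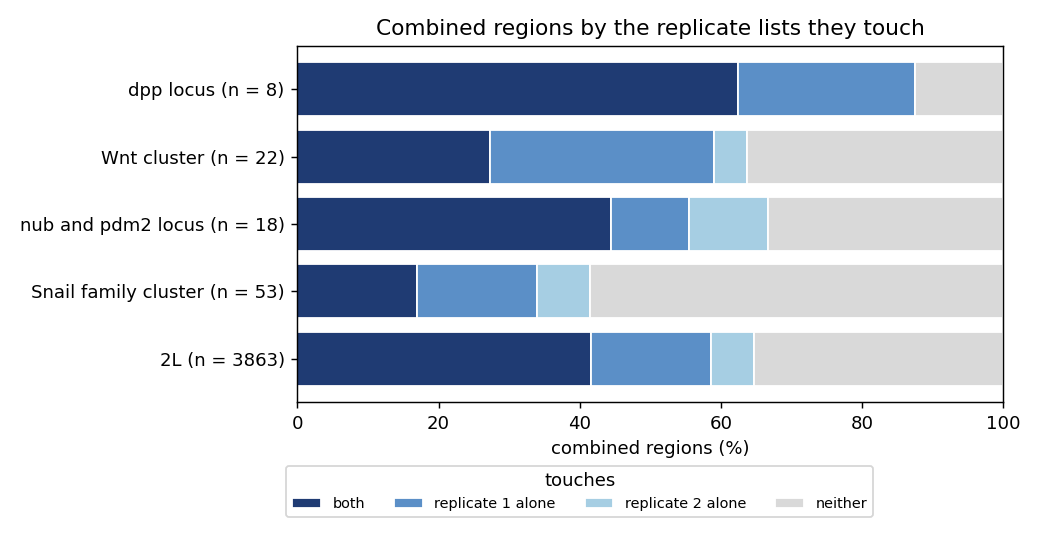
Percent of combined regions (x axis) in each locus and on 2L as a whole that touch both replicate lists, replicate 1 alone, replicate 2 alone or neither; n is the number of combined regions. The Snail family cluster has the widest grey part, 58.5% in neither list beside 35.2% on 2L, and dpp the widest dark part, 62.5% in both beside 41.7%.

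The regions that the combined list added in the Snail family cluster were shorter than those in both replicate lists, as on the whole arm. Those in neither replicate list had a median width of 1335 bp and a median score of 0.38, beside 3212 bp and 0.52 for those in both. On 2L these values were 1275 bp and 0.34 beside 3091 bp and 0.49. The narrowest region of the replicate lists on 2L was 1301 bp, and 17 of the 53 combined regions here (32.1%) were narrower than that, beside 20.7% on 2L. The corresponding counts were 1 of 8 at dpp, 3 of 22 in the Wnt cluster and 5 of 18 at nub and pdm2. The combined list named 14 regions over all chromosomes as depleted of H4, and none overlapped the 4 loci. With so few, their absence from 462 kb says little about these loci. Sequencing depth is not known here, so how far it set the difference between replicate and combined lists was not tested.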

How the data were processed

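Regions of H4 enrichment were deposited as 3 lists, 1 for each of the 2 ChIP libraries and 1 combined list, on FlyBase r5 per the file headers. Bowtie 0.12.7 is named in the submitters' processing notes. The caller, its threshold and how the replicates were merged are not given in the sources used. For each region the deposited lists give 1-based coordinates (other values, not measurements) and the authors' own score, which was used only within a list. The lists hold no counts, so depth is unknown and no counting interval is given. Per the labels, each input was the control of 1 ChIP list; no values of the inputs themselves were used.

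Covered shares were counted per base. Comparison windows of each locus's width were laid from the first base of 2L, leaving out those that touch a locus; windows on 1 arm are not independent, and no p is given. Regions of both replicates were paired where each was the other's largest overlap. Whether the replicates are separate embryo collections is not labelled, so their spread may be technical. Loci and lists were chosen with earlier results of these data known. Named are, per locus and replicate list, the 5 longest and the 3 highest scoring regions, the longest gap of each list, the longest combined region in neither replicate list and, at dpp, every replicate region; other regions and bins were chosen after their values were seen. Functions were tested on simulated data. The planned protein comparison was not run, as no sequences were at hand. Alternatives were the higher scoring 50% of each list, the combined list, window edges moved out by 10 kb, shifted comparison windows, at least 50% overlap and each replicate alone. Python 3.11.15, NumPy 2.4.6, pandas 2.3.3, SciPy 1.17.1 and Matplotlib 3.10.9 were used.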

Additional observations from a re-analysis of the deposited data

How the results depend on the processing

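No paired analysis was possible because the inputs have no values of their own and no test was made. When only the higher scoring 50% of regions were kept, the mean covered share was 10.1% at dpp, 11.6% in the Wnt cluster, 9.24% at nub and pdm2 and 6.84% in the Snail family cluster, from 1.5, 5.0, 4.0 and 6.0 regions. dpp then stood at percentile 50.0 of its windows in place of 80.1, and its Jaccard index was 0%, while the indices of the other 3 loci were 42.5%, 54.2% and 33.2% in the same order. The high share of dpp in the replicate lists therefore rests on regions in the lower scoring 50% of those lists. In the combined list, 5 of the 8 dpp regions were at or above the 2L median score. The combined list gave shares of 70.0%, 48.7%, 35.8% and 42.1%, and percentiles of 86.0 for dpp, 59.0 for the Wnt cluster and 43.6 for the Snail family cluster, in place of 80.1, 44.1 and 16.0. With edges moved out by 10 kb dpp had 39.8%. With shifted comparison windows the Snail family cluster stood at percentile 21.3. With each replicate alone the percentile of nub and pdm2 ranged from 37.8 to 43.2. The covered shares of each replicate alone always lie within the SD of 2 values, so they show no stability. The other planned or added alternatives moved covered shares and percentiles by less than the replicate SD, numbers of regions by less than 1.5 times, and the shares of combined regions in both lists by less than a 95% Wilson interval that treats regions as independent. The effect of depth, which is unknown, was not tested.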
